A study of Homo sapiens with 36 samples.

Results

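The EA.hy926 libraries made after 48 h of exposure to perfluorooctanoic acid (PFOA) were compared in 2 pools, 6 libraries of the higher concentrations (10 and 100 µM) against 6 libraries of vehicle or 1 µM. They are 12 of the 36 libraries of the series, taken by their labelled time and concentration, and each pool joins 2 labelled groups of 3 biological replicates. PFOA is a perfluorinated carboxylic acid that is very persistent in the environment and in the body. EA.hy926 is an established human line made by fusing umbilical vein endothelial cells with A549 lung carcinoma cells, so it carries epithelial as well as endothelial genes. The cells were wild type, were plated in dishes the day before exposure and were grown in serum with hypoxanthine, aminopterin and thymidine. Vehicle was 0.05% DMSO, and messenger RNA libraries were sequenced as paired 150 bp reads. The other 24 libraries came from flasks kept for 6 or 12 weeks with vehicle or 1, 10 or 100 nM PFOA, and are used only where the 48 h difference is set against theirs.

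PFOA resembles a fatty acid and binds the fatty acid sensing receptor PPARα, which raises genes of fatty acid oxidation. Starvation for amino acids and several other stresses act through the kinases that phosphorylate eIF2α, after which the factor ATF4 is translated and raises asparagine synthetase and other amino acid genes through a composite promoter element. Immediate early genes such as FOS and EGR1 answer growth factor and MAP kinase signals within minutes, and Notch signals between neighbouring endothelial cells through the factor RBPJ, with HES1 as a classical target.

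No gene passed the test of the pooled comparison. At an adjusted p under 0.05 in limma, 0 of 12233 genes were called (0%), the smallest adjusted p was 0.654, and 692 genes had an unadjusted p under 0.05, of which 206 (1.68% of the genes tested) had the higher mean in the high pool and 486 (3.97%) the lower. Single libraries moved that count: it was 4121 without 10 µM replicate 2 (2228 higher and 1893 lower, smallest adjusted p 0.061), 1514 without 100 µM replicate 3 (712 and 802), and between 294 (without 1 µM replicate 1) and 656 (without 1 µM replicate 3) without any other. Of the count models run on the same reads, edgeR called 0 genes, with 912 at an unadjusted p under 0.05, and DESeq2 called 2, with 1597. The direction of those unadjusted counts depended on the model: edgeR put 567 higher and 345 lower, and DESeq2 1099 higher and 498 lower. Values are normalised read counts, that is reads divided by a size factor of the library, and a log2 difference is that of the mean of log2(value + 1) between pools with its standard error (SE). All genes named for the pooled comparison had an adjusted p of at least 0.654 in limma, which is not repeated for each.

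The 48 h libraries held 18444181 to 19466331 reads (median 19128387) and 14198 to 14631 genes with a read. Of the 10 endothelial markers, 9 had a mean of at least 10, PECAM1 with a mean of 2919 and CDH5 with 3237, while KDR, the main VEGF receptor, reached at most 5.19 in any library. The summed endothelial markers lay between 34813 and 51656 in the low pool and between 33910 and 90870 in the high pool. Of 6 epithelial markers 4 had a mean of at least 10, and CDH1 was at 0 in 11 of 12 libraries. Of 6 leukocyte markers, PTPRC and CD3E were at 0 in 11 of 12 libraries, CD14 and LYZ were under a mean of 10, and CD68 and LAPTM5 had means of 3058 and 6226. The summed leukocyte markers lay between 6228 and 7797 in the low pool and between 6010 and 16828 in the high pool, and their part in the results was not tested.

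The libraries of the high pool were uneven. Ribosomal protein genes took 14.5%, 12.2% and 17.3% of reads in vehicle replicates 1 to 3 and 14.1%, 11% and 16.5% at 1 µM. At 10 µM they took 18.1%, 10.2% and 21.1%, and at 100 µM 20.0%, 19.7% and 14.1%. The lowest and the highest share of all 12 libraries were therefore 2 replicates of the same concentration, 10 µM replicates 2 and 3. The pool means were 17.2% ± 4.22 (SD, n = 6) in the high pool and 14.2% ± 2.39 (SD, n = 6) in the low pool, a difference of 2.93 percentage points (exact permutation test over 924 regroupings, two-sided, p = 0.169, adjusted p = 0.169 over both shares). Mitochondrially encoded transcripts took 8.96% ± 2.44 (SD, n = 6) against 7.24% ± 1.38 (SD, n = 6), a difference of 1.72 percentage points (exact permutation p = 0.162, adjusted p = 0.169). Without 10 µM replicate 2 the differences were 4.33 percentage points (exact permutation p = 0.026) and 2.44 percentage points (exact permutation p = 0.0433). Without 10 µM replicate 3 they were 2.14 (exact permutation p = 0.307) and 1.20 (exact permutation p = 0.297), and leaving out any of the other 10 libraries gave exact p above 0.05.

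**Figure D1:**
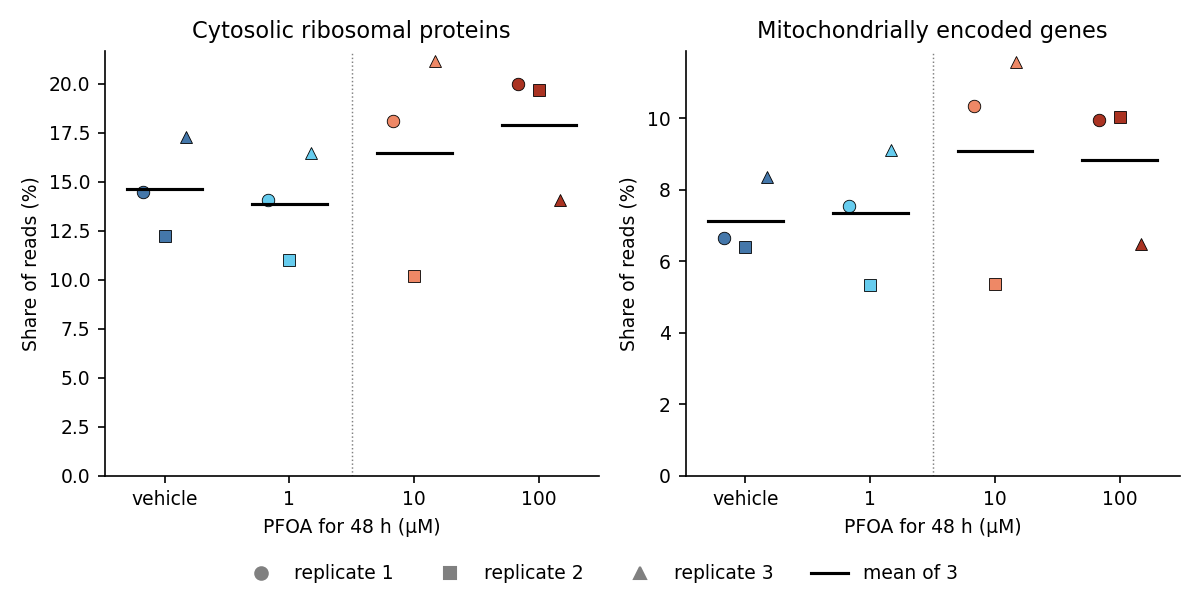
Share of reads, in percent, from genes of cytosolic ribosomal proteins and from mitochondrially encoded genes in each library at 48 h, by PFOA concentration in µM (0 is vehicle). Symbols are replicates, the bar is the mean of 3 and the dotted line parts the pools; 10 µM replicate 2 has the lowest ribosomal share (10.2%) and 10 µM replicate 3 the highest (21.1%).

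The same libraries lay at both ends of the first principal component, which held 78.0% of the variance over the genes tested. The scores were -77.3 for 10 µM replicate 2 and 120.8 for 10 µM replicate 3, with the remaining 10 libraries between -66.5 and 53. A gene's weight on this component followed the GC content of its transcript (r = 0.64 across genes) and the pooled log2 differences followed the weights (r = 0.86 across 12233 genes). The part of this component in the differences below was not tested, and values of fits that include it are given for the lists described below whose median changes sign with it. With the component in the fit, limma again called 0 genes, with a smallest adjusted p of 0.0736 and 2414 genes at an unadjusted p under 0.05.

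The leading genes were those in which all 6 libraries of the high pool lay above, or all 6 below, those of the low pool. They numbered 22 higher (0.18% of the genes tested) and 41 lower (0.335%), and the 12 with the smallest p in each direction and a mean of at least 50 are named here. The counts were 84 and 249 without 10 µM replicate 2, 63 and 108 without 1 µM replicate 2, and 65 and 115 without 1 µM replicate 3. Leaving out a library eases the condition of no overlap, so such rises alone do not show that the counts rest on single libraries. Transcripts of the higher genes had a median GC content of 42.6%, those of the lower genes 56.3% and all genes tested 48.4%. This is the opposite of the order along the first component, on which genes with more GC had the larger weights and larger differences went with larger weights. The condition of no overlap itself selects on this component, because 10 µM replicates 2 and 3 lie at its ends. The part of that selection in the order was not tested.

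FHIP2A and WDR89 had the smallest p of the higher genes. FHIP2A, part of an adaptor complex that links cargo to dynein, stood at 241, 237 and 245 in vehicle, 211, 346 and 295 at 1 µM, 397, 432 and 445 at 10 µM, and 354, 434 and 445 at 100 µM. All 6 high libraries lay above the highest low one, 1 µM replicate 2, and the log2 difference was 0.68 (SE 0.15, unadjusted p = 0.00104). WDR89, a WD-repeat protein, stood at 182, 192 and 184 in vehicle, 192, 234 and 236 at 1 µM, 308, 269 and 362 at 10 µM, and 290, 351 and 290 at 100 µM, a log2 difference of 0.61 (SE 0.14, unadjusted p = 0.0012). The vehicle libraries of both genes were close together, and the 1 µM libraries spread more widely, below and above vehicle for FHIP2A. These 2 genes were also those called by DESeq2 (adjusted p = 0.0276 for each), and they passed in none of the other 27 alternatives.

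The other higher genes had varied roles. SNAPC1, a subunit of the complex that starts transcription of small nuclear RNA genes, ranged from 446 over a median of 546 to 604 in the low pool and from 654 over 774 to 1488 in the high pool (log2 difference 0.71, SE 0.21). Its highest value came from 10 µM replicate 3, and the pools did not overlap. FBXO45, the substrate subunit of a ubiquitin ligase, ranged from 197 over 283 to 350 against 378, 401 and 429 (0.53, SE 0.15). HSD17B11, a dehydrogenase found on lipid droplets, ranged from 194 over 217 to 234 against 237, 322 and 421 (0.56, SE 0.17). The gap between the pools was thus narrow for HSD17B11 and wider for FBXO45 and SNAPC1. TMEM19, a membrane protein, had a log2 difference of 0.67 (SE 0.22), with 959 in its highest library and 477 to 489 between the lowest and the median of the high pool. The remaining 6 named genes had log2 differences from 0.39 (C10orf88) to 0.49 (DMXL1, which helps assemble the proton pump of acidic organelles, and AGFG1). Among them were PPP3CA, the catalytic subunit of calcineurin, at 0.45 (SE 0.16), LARS1, which charges the leucine tRNA, at 0.43 (SE 0.16), and MKRN1, a ubiquitin ligase, at 0.41 (SE 0.15). PPP3CA stood apart by little, with 150.9 in the highest low library and 151.2 in the lowest high one.

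Among the lower genes, 2 acyltransferases that rebuild phospholipids led by size. LPCAT3, which puts polyunsaturated chains into phosphatidylcholine, stood at 812, 860 and 1006 in vehicle and 857, 746.4 and 760 at 1 µM, and at 373, 745.8 and 304 at 10 µM and 461, 394 and 550 at 100 µM. The log2 difference was -0.89 (SE 0.22, unadjusted p = 0.00173), and 10 µM replicate 2 reached the edge of the low pool while the other 5 high libraries lay at 550 or less. LPCAT4 ranged from 1775 over 2144 to 3002 in the low pool and from 772 over 1154 to 1734 in the high pool (log2 difference -0.90, SE 0.23). Exons of LPCAT3 and of EMG1 on the opposite strand share 1141 bases, and whether the reads were counted by strand is not given in the sources used here. The list of 30 phospholipid remodelling genes as a whole had 16 higher and 14 lower means and a median log2 difference of 0.02, so LPCAT3 and LPCAT4 were not typical of it.

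SREBF1, the gene of the factor that drives fatty acid synthesis, stood at 1015, 1023 and 1380 in vehicle, 1240, 933 and 973 at 1 µM, 661, 793 and 760 at 10 µM, and 778, 646 and 760 at 100 µM. The pools did not overlap and the spread within the high pool was small, with a log2 difference of -0.57 (SE 0.15, unadjusted p = 0.00293). SREBF1 shares 442 exonic bases with RAI1 on the opposite strand. HES1 and ID1, which both hold back other transcription factors, had log2 differences of -0.79 (SE 0.21) and -0.80 (SE 0.23). ID1 ranged from 3485 over 4760 to 5840 in the low pool and from 1531 over 2929 to 3469 in the high pool, so that the pools almost touched. BBC3, the p53 target PUMA that promotes apoptosis, ranged from 474 over 643 to 897 against 332, 413 and 468 (-0.67, SE 0.18).

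The remaining lower genes had log2 differences between -0.73 and -0.55. GLB1, the lysosomal beta-galactosidase, ranged from 1394 over 1609 to 1752 against 805, 1023 and 1349 (-0.60, SE 0.17). EPOP, which binds Polycomb repressive complex proteins, had -0.66 (SE 0.18), AKNA, an AT-hook protein, -0.59 (SE 0.16), and LTO1, a factor for a ribosome recycling protein, -0.55 (SE 0.15). LTO1 shares 253 exonic bases with CCND1 on the opposite strand, which has far more reads (mean 8415). HOXB6, a homeobox factor, had -0.60 (SE 0.18) and shares 433 exonic bases with HOXB3. RABL2B, a small GTPase with a near-identical copy, RABL2A, had -0.73 (SE 0.22), and its reads may belong to either copy. All 12 lower genes are described by pools that do not overlap, which was the condition for naming them.

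The gene lists give the setting of these genes. Each is described by how many of its tested genes had a higher or lower mean in the high pool and by its median log2 difference, beside 6217 higher and 6016 lower and a median of 0.01 over all 12233 genes. No member of any of the 38 lists passed the test, so the counts describe means.

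The immediate early genes had the lowest median of the lists, -0.43, with 19 of 22 tested members lower. At an unadjusted p under 0.05, 10 of the 22 were lower and 0 higher, beside 3.97% and 1.68% of all genes. The median was -0.47 for 100 µM against vehicle, -0.43 for 10 against 1 µM and -0.36 once the first component was in the fit, and between -0.63 and -0.34 over the 28 alternatives. By library, the list's median log2 deviation from each gene's mean ran from -0.026 to 0.366 in the low pool and from -0.515 to 0.355 in the high pool. The pools thus overlapped, with 10 µM replicate 2 the highest of the high pool. JUND, the AP-1 subunit that is often made without stimulus, ranged from 744 over 1109 to 1616 in the low pool and from 631 over 696 to 776 in the high pool (log2 difference -0.69, SE 0.18, unadjusted p = 0.00311). In 4 of the 6 high libraries JUND was below every low library. IER5, a regulator of heat shock factor, ranged from 1226 over 1727 to 1935 against 490, 930 and 1660 (-0.89, SE 0.27). ZFP36, which speeds the decay of cytokine messages, ranged from 241 over 310 to 355 against 90.4, 180 and 304 (-0.80, SE 0.28). In both genes 5 of 6 high libraries lay below the low pool. SRF, the factor that binds the promoters of many of these genes, had -0.41 (SE 0.15).

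The AP-1 genes FOS and FOSB were low in all 48 h libraries. FOS ranged from 39.4 over 86.6 to 122 in the low pool and from 12.2 over 29.5 to 93.0 in the high pool (-1.30, SE 0.50), and FOSB from 37.6 over 56.8 to 73.3 against 27.8, 33.4 and 55.7 (-0.59, SE 0.25). MYC, the growth regulator, ranged from 2192 over 2664 to 2781 against 398, 1143 and 2798 (-0.98, SE 0.41). The low pool was tight for MYC, whereas the high pool ran from far below it to its upper edge, with 4 libraries below and 2 above. EGR1 had -0.87 (SE 0.44) and ATF3 -0.42 (SE 0.28), each with 1 high library above the whole low pool. A list of MAP kinase feedback genes, which damp the same signals, had 18 of 22 lower with a median of -0.31, which was -0.12 once the component was in the fit. Its members MAP2K3, a kinase upstream of p38, NAB2, a corepressor of EGR factors, and FRS3, an adaptor of growth factor receptors, had -0.61 (SE 0.16), -0.68 (SE 0.19) and -0.76 (SE 0.22).

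The Notch list had 11 of 16 genes lower and a median of -0.27 that stayed between -0.38 and -0.14 over the alternatives. At an unadjusted p under 0.05 in limma, 4 were lower and 1 higher, beside 3.97% and 1.68% of all genes. DLL4, the endothelial ligand, ranged from 44.2 over 55.8 to 63.9 in the low pool and from 17.4 over 29 to 57.2 in the high pool (-0.82, SE 0.27). NOTCH1, the receptor, ranged from 1335 over 1750 to 1937 against 876, 1016 and 1920 (-0.62, SE 0.21), and 10 µM replicate 2 was the one high library within the low pool. RBPJ, the DNA-binding partner of the receptor, went the other way, from 315 over 366 to 436 against 360, 583 and 688 (0.52, SE 0.19). Of the targets, HES1 stood at 328, 332 and 383 in vehicle and 403, 263 and 304 at 1 µM, and at 166, 252 and 113 at 10 µM and 241, 213 and 200 at 100 µM. All 6 high libraries lay below all 6 low ones (-0.79, SE 0.21, unadjusted p = 0.00262). NRARP, a feedback inhibitor, had -0.65 (SE 0.27). The other members with a higher mean were JAG1 (0.01), MFNG (0.11), HEY2 (0.25) and HES4 (0.78, SE 0.63), so ligands and targets were found on both sides.

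The HES1 and JUND promoters are shown because these regulators had low p in their lists and carry an element of their known regulators; capitals mark, in HES1, the RBPJ element (GTGGGAA) at 85 to 79 bases before the start and, in JUND, the cyclic AMP response element (TGACGTCA) at 200 to 193 bases before it. The sequences are RefSeq's for GRCh38.p14, 250 bases up to the start of the gene, 5′ to 3′ on the gene's strand.
HES1 (chr3:194135898-194136147, plus strand): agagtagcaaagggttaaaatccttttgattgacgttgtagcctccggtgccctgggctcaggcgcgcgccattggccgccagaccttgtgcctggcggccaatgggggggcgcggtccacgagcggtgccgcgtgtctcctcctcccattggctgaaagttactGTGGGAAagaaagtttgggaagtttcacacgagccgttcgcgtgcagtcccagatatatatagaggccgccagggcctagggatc
JUND (chr19:18281623-18281872, minus strand): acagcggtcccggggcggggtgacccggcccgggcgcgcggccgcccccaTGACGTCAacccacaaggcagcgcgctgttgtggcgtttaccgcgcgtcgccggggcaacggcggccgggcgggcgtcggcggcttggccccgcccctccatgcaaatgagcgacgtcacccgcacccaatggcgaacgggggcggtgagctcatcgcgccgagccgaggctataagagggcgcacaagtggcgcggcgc
Both strands were searched. The RBPJ element was in 5.46% of 27305 promoters of the same length and in 3 of the 13 Notch promoters found, and the cyclic AMP element in 1.77% of all and in 1 of 16 immediate early promoters, that of JUND. The AP-1 element (TGANTCA) was in 6.60% of all and 0 of 16 immediate early promoters, and the CArG box that SRF binds in 1.14% and 2 of 16. Over the 9987 promoters of genes tested here, the shares were 4.98% for the RBPJ element, 2.96% for the cyclic AMP element, 3.92% for AP-1 and 0.981% for the CArG box. A match is a description of the letters in this window.

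Neighbouring signalling lists shared the direction of the pooled median, but not in every library of the high pool. ID proteins and inhibitory SMADs, the classical answer to BMP and TGF-beta, had 7 of 11 lower (median -0.23). Their members SKI and SKIL, which both repress SMADs, were parted, with -0.73 (SE 0.25) and 0.58 (SE 0.23). The YAP target list had 10 of 13 lower (median -0.25), and AXL, a receptor kinase, was 1 of its 3 higher members: it ranged from 6233 over 6498 to 6790 in the low pool and from 6882 over 8913 to 11187 in the high pool (0.45, SE 0.17), with no overlap. The flow-responsive KLF list had 8 of 10 lower (median -0.23). KLF2, which keeps endothelium quiescent under flow, ranged from 2187 over 2995 to 4039 against 1444, 2142 and 2465 (-0.64, SE 0.20). By library, the median log2 deviations of the ID and SMAD, YAP and KLF lists were 0.390, 0.516 and 0.276 in 10 µM replicate 2. In 100 µM replicate 3 they were 0.287, 0.574 and 0.259, so both high libraries deviated upward. Once the component was in the fit, the pooled medians of these lists were -0.19, -0.17 and -0.08.

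For lipid genes, PPAR targets and fatty acid oxidation had 19 of 32 higher with a median of 0.09, which lay between 0.03 and 0.16 over the alternatives. At an unadjusted p under 0.05 in limma, 1 member was higher and 0 lower, beside 1.68% and 3.97% of all genes. A further 9 targets on the list, among them PDK4, PLIN2 and CD36, were under the mean of 10 and were not tested. ANGPTL4, a PPAR target that inhibits lipoprotein lipase, ranged from 819 over 1539 to 3267 in the low pool and from 703 over 3001 to 7789 in the high pool (0.83, SE 0.55), so the high pool spanned the whole low pool. HADHA, of mitochondrial beta-oxidation, had 0.71 (SE 0.34). CREB3L3, a liver factor with few reads here, had 1.34 (SE 0.56) between medians of 4.16 and 13.4. Fatty acid synthesis had 13 of 20 lower with a median of -0.18, which turned to 0.09 once the component was in the fit. FASN, the fatty acid synthase, ranged from 4567 over 5255 to 6481 against 2922, 3845 and 5171 (-0.49, SE 0.18), and MID1IP1, which activates acetyl-CoA carboxylase, had -0.67 (SE 0.22). SCD, the desaturase, had -0.44 (SE 0.23). The sterol element that SREBP factors bind (TCACNCCA, either strand) was in 3.18% of all promoters, 2.68% of those of tested genes, 1 of 19 of this list and 3 of 18 of the cholesterol list. Cholesterol synthesis and uptake had 14 of 23 lower with a median of -0.12, which was 0.02 without 10 µM replicate 3.

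Amino acid stress genes were divided by member. Of the 31 tested genes of the ATF4 list 18 were higher, with a median of 0.11 that turned to -0.04 once the component was in the fit and to -0.09 after quantile normalisation. ASNS, which makes asparagine, stood at 1381, 1465 and 1096 in vehicle and 1513, 1535 and 1419 at 1 µM, and at 2283, 1362 and 2147 at 10 µM and 2362, 2724 and 2282 at 100 µM. In 5 of the 6 high libraries ASNS was above every low one, the exception being 10 µM replicate 2, and the log2 difference was 0.62 (SE 0.17, unadjusted p = 0.00325). CHAC1, which degrades glutathione, stood at 33.7, 37.9 and 104 in vehicle and 56.8, 28.4 and 54.7 at 1 µM, and at 96.1, 32.0 and 219 at 10 µM and 188, 319 and 79.4 at 100 µM (1.33, SE 0.51). The 3 highest values were all from the high pool, and the pools overlapped. NUPR1, a small stress protein, had 1.59 (SE 0.60) between medians of 5.83 and 19.4. PHGDH, which starts the synthesis of serine, had 0.69 (SE 0.36), with high libraries from 1637 to 7062 on both sides of the low pool. CEBPB, a partner of ATF4, went the other way with -0.67 (SE 0.24).

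The ASNS and CHAC1 promoters are shown because the element through which ATF4 and C/EBP factors act on such genes is in their window; capitals mark it, TGATGNAA on either strand.
ASNS (chr7:97872409-97872658, minus strand): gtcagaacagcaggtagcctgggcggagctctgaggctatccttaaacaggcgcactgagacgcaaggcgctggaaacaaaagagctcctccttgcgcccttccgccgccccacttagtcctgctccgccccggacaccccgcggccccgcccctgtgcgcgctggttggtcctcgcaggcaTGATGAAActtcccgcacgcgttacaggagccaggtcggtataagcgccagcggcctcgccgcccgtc
CHAC1 (chr15:40953221-40953470, plus strand): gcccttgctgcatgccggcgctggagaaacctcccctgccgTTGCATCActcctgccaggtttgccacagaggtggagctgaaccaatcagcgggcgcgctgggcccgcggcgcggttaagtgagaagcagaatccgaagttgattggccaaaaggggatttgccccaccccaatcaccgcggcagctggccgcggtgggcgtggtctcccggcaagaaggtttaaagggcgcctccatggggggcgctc
The element lies 68 to 61 bases before the start of ASNS and, on the reverse strand, 209 to 202 bases before that of CHAC1. It was in 3.19% of all promoters and in 3 of the 25 ATF4-list promoters found, and in 2 of 16 tRNA synthetase promoters. Over the 9987 promoters of genes tested here, the element was in 1.39%.

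The cytosolic aminoacyl-tRNA synthetases, which load amino acids onto tRNAs, had 15 of 20 higher with a median of 0.34, between 0.16 and 0.42 over the alternatives. By library, the list's median log2 deviation ran from -0.191 to -0.054 in the low pool and from -0.267 to 0.470 in the high pool. Its lowest library was 10 µM replicate 2, below every low one. LARS1 was in the set without overlap. CARS1, for cysteine, ranged from 1437 over 1638 to 1773 in the low pool and from 1548 over 2214 to 2559 in the high pool (0.40, SE 0.16). AARS1 and WARS1, for alanine and tryptophan, had 0.52 (SE 0.25) and 0.54 (SE 0.25), and in each of these 3 genes 5 of the 6 high libraries lay above the low pool. Amino acid transporters did not share this, with 12 of 18 lower and a median of -0.19.

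Genes of translation and respiration had mostly higher means. The ribosomal protein and mitochondrially encoded lists are the genes whose shares of reads are given above. The common direction of their shares and medians is therefore not a separate result. The part of those shares in the other lists was not tested. Of 80 ribosomal protein genes 78 had a higher mean, with a median of 0.48 that was 0.02 after quantile normalisation and 0.05 once the component was in the fit. The 13 mitochondrially encoded genes were all higher (median 0.65), and their medians under those settings were 0.09 and 0.12. The nuclear-encoded respiratory chain had 60 of 76 higher (median 0.39). At an unadjusted p under 0.05, 4 of the 76 were lower and 0 higher in limma, beside 3.97% and 1.68% of all genes, whereas edgeR had 3 lower and 14 higher and DESeq2 4 and 18. ATP5MC3, of the ATP synthase rotor, had -0.58 (SE 0.19), with no overlap between 2192 to 2840 in the low pool and 1172 to 2139 in the high pool.

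Endothelial and proliferation genes had lower means in part of their members. The endothelial list had 22 of 36 lower and a median of -0.06, which was -0.18 for 100 µM against vehicle and 0.01 for 10 against 1 µM. At an unadjusted p under 0.05, 6 members were lower and 0 higher in limma, beside 3.97% and 1.68% of all genes. CLEC14A, a receptor of sprouting vessels, ranged from 1024 over 1221 to 1653 in the low pool and from 530 over 788 to 1032 in the high pool (-0.71, SE 0.20). SOX17, an arterial factor, ranged from 115 over 132 to 145 against 41.7, 90.5 and 113 (-0.67, SE 0.24), with no overlap. Of the high libraries 5 of 6 for CLEC14A, and all 6 for SOX17, lay below the low pool. APLN, an angiogenic peptide, GATA2, an endothelial transcription factor, and CDH5, the junction protein VE-cadherin, had -0.68 (SE 0.22), -0.63 (SE 0.21) and -0.80 (SE 0.31). MCAM, an adhesion molecule, had -0.92 (SE 0.33). Of the 14 higher members, ENG, a TGF-beta coreceptor, had 0.51 (SE 0.41) and TIE1, a receptor of vessel maturation, 0.35 (SE 0.29). ENG ranged from 11490 to 24580 in the low pool and from 11040 to 56420 in the high pool, so the high pool spanned the low one. For APLN and GATA2 1 µM replicate 3 was far below the other low libraries, at 4286 against 6178 for its nearest neighbour in APLN and 398 against 569 in GATA2.

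DNA replication genes had 26 of 38 lower with a median of -0.18, which was -0.32 for 100 µM against vehicle and between -0.25 and -0.13 over the alternatives. MCM3, of the replicative helicase, ranged from 1600 over 2047 to 2208 against 1050, 1184 and 2059 (-0.61, SE 0.19), and its highest value in the high pool was 10 µM replicate 2. ORC6, of the origin recognition complex, had -0.87 (SE 0.31) and TYMS, thymidylate synthase, -1.14 (SE 0.48); all cells had thymidine and aminopterin in the medium, and TYMS overlaps ENOSF1. Mitosis genes had 27 of 44 lower (median -0.14), and turned to a median of 0.03 with the component and also changed sign without 10 µM replicate 3. CDCA8, of the chromosomal passenger complex, had -0.62 (SE 0.18) and CDCA2, a phosphatase partner on chromatin, 0.61 (SE 0.17).

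Of the endoplasmic reticulum chaperones, which fold secreted proteins, 20 of 24 had a lower mean, with a median of -0.27 (-0.10 with the component). PDIA3, a disulfide isomerase, had -0.75 (SE 0.30) and HYOU1, a large chaperone, -0.53 (SE 0.23). SYVN1, the ubiquitin ligase of misfolded proteins, ranged from 520 to 656 in the low pool and from 244 to 500 in the high pool (-0.66, SE 0.21), but shares 356 exonic bases with the much more abundant FAU. Among heat shock chaperones, whose list was even (9 higher, 11 lower), the near-identical HSPA1A and HSPA1B had -0.85 (SE 0.32) and -1.39 (SE 0.47), and reads may be split between them. HMOX1, the heme oxygenase of the NRF2 response, ranged from 323 over 435 to 533 against 122, 252 and 391 (-0.78, SE 0.26), while the NRF2 list had 18 of 31 higher and a median of 0.07, or -0.03 after quantile normalisation. The p53 and NF-kB lists were evenly divided, with 11 of 22 and 15 of 29 higher and a median of 0.02 each, or -0.04 and -0.03 with the component. NFKBIA, the inhibitor of NF-kB, had -0.65 (SE 0.24) and CCL2, a monocyte attractant, -0.52 (SE 0.21).

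The concentrations within each pool were also compared. Between 100 and 10 µM limma called 0 of 12233 genes (0%), with 13 at an unadjusted p under 0.05. Between 1 µM and vehicle it also called 0 (0%), with 6. Both counts lie far below the share that a threshold of 0.05 gives when nothing differs. They therefore do not show that the concentrations were alike. Without 10 µM replicate 2 the count between 100 and 10 µM was 425, with 403 higher and 22 lower at 100 µM. The median size of the log2 difference was 0.10 between 100 and 10 µM, 0.13 between 1 µM and vehicle and 0.27 between the pools. ZNF484, a zinc finger gene, was among those 6 genes (0.65, SE 0.27), at means of 57.9 and 36.4, and it stayed at 57.9 and 57.4 at the higher concentrations. PLCB4, a phospholipase C, had means of 266, 353, 420 and 509 from vehicle to 100 µM, an order that its standard errors do not resolve between neighbours (log2 differences 0.39, 0.26 and 0.24 with an SE of 0.26 each).

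Between the high concentrations, members of the ATF4 list lay mostly one way. At 100 µM 30 of its 31 genes had a higher mean than at 10 µM, with a median log2 difference of 0.29, beside 62.5% of all genes and a median of 0.05. By library, the list's median log2 deviation was 0.183, 0.113 and 0.097 at 100 µM and -0.126, -0.291 and 0.312 at 10 µM. The 100 µM libraries thus lay within the range of the 10 µM libraries, and the libraries do not part the 2 concentrations. The count of 30 was 27 after quantile normalisation, 26 in edgeR and DESeq2, 20 without 10 µM replicate 2 and 21 without 10 µM replicate 3. The median log2 difference ran from 0.21 to 0.35 over all alternatives. SLC7A5, a carrier of large neutral amino acids, had 960 ± 33.2 (SD, n = 3) at 100 µM and 733 ± 175 (SD, n = 3) at 10 µM, and ASNS 2456 ± 236 and 1931 ± 497. Neither difference passed the test (adjusted p = 1.0 in limma), so the list's shift is one of means.

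The pooled comparison can be split into 2 that share no library, 100 µM against vehicle and 10 against 1 µM. Neither called a gene (0% each), with 244 and 111 genes at an unadjusted p under 0.05. For 10 against 1 µM that count was 3788 without 10 µM replicate 2 and 41 without 10 µM replicate 3. Across 12233 genes the log2 differences of the 2 parts had r = 0.79 and the same sign in 80.3%. After correction for GC content and length they had r = 0.79 and the same sign in 81.8%. These values are a description across genes that share the first component, and genes are not independent replicates. The values of the 2 parts are given side by side for 5 genes. HES1 had -0.67 and -0.92, LPCAT3 -0.93 and -0.84, WDR89 0.73 and 0.50, ASNS 0.91 and 0.34, and CHAC1 1.70 and 0.97.

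**Figure D2:**
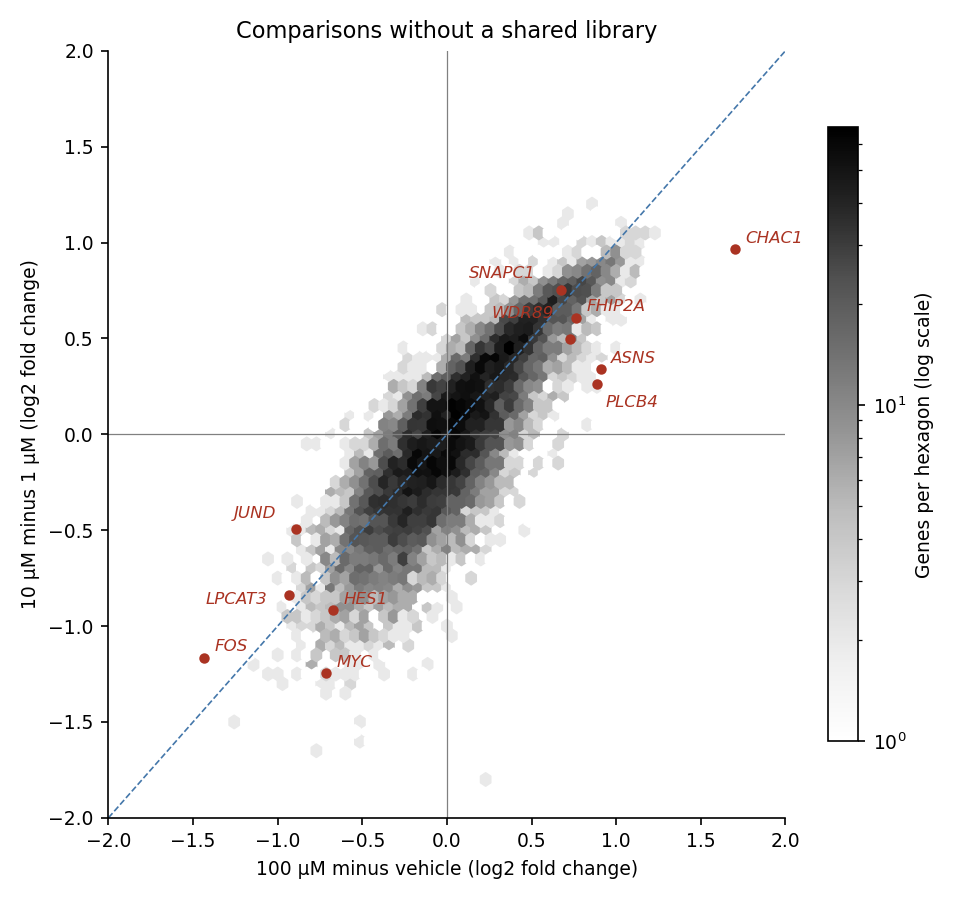
Log2 difference of 100 µM against vehicle (x axis) and of 10 against 1 µM (y axis) for each gene at 48 h; the grey scale is the number of genes per hexagon on a log scale, points are named genes and the dashed line marks equal values. The 2 comparisons share no library and have the same sign in 80.3% of genes; a few genes lie outside the axes.

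The same pools at 6 weeks (10 and 100 nM against vehicle and 1 nM) had mostly opposite differences. The times differ in concentration, in the way cells were grown and collected and in the table in which they were normalised, so time and dose cannot be told apart; each difference is taken within its own table and only differences are compared. In the test of 48 h against 6 weeks limma called 2308 genes with the higher difference at 48 h (19.1% of 12079) and 1790 with the lower (14.8%), but these counts rest on the model: 2 genes were called with replicate number as a block, 4 with the component in the fit, 7 after quantile normalisation, and between 2 and 7703 when single libraries were left out. Leaving out 100 µM replicate 3, 10 µM replicate 2 or the first 1 nM replicate at 6 weeks gave 6539, 7458 and 7703 genes. The pooled log2 differences at the 2 times had r = -0.78 over 12079 genes, with opposite signs in 79.0%, and the ribosomal protein list had a median of 0.48 at 48 h and -0.92 at 6 weeks. At 6 weeks ribosomal protein genes took a mean of 12.6% of reads in the high pool and 17.4% in the low pool, the opposite order to 48 h. Against 12 weeks, limma called 0 of 12003 genes (0%), while the log2 differences again had opposite signs in 78.4% of genes (r = -0.72). Both correlations are descriptions across genes, which are not independent replicates. The part of the shares of reads in them was not tested.

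HES1 passed the test of 48 h against 6 weeks in all 14 settings and all 24 fits that left out a library. At 6 weeks it ranged from 367 over 744 to 1257 in the low pool and from 2262 over 2482 to 3097 in the high pool, a log2 difference of 1.82 (SE 0.25), against -0.79 (SE 0.21) at 48 h. The pools overlapped at neither time and lay in opposite order. The difference of the differences was -2.62 (SE 0.32, adjusted p = 0.00152 in limma), between -2.81 and -2.46 when libraries were left out. FOSB had -2.07 (SE 0.29, adjusted p = 0.0058) from -0.59 at 48 h and 1.48 (SE 0.19) at 6 weeks, where it ranged from 447 over 622 to 916 against 1564, 1756 and 1972. FOSB passed in 12 of the 13 settings that tested it, not with a minimum fold of 1.5, and in all 24 left-out fits. FOS, EGR1, ZFP36 and ATF3 were on the same side, with -3.90, -3.47, -2.0 and -1.82, and CHAC1 and SNAPC1 on the other with 3.08 and 1.19 (adjusted p = 0.044 each), but each passed in only 9 of 24 left-out fits. The immediate early list as a whole had a median of -0.43 at 48 h and 0.72 at 6 weeks, where 18 of 22 genes were higher.

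**Figure D3:**
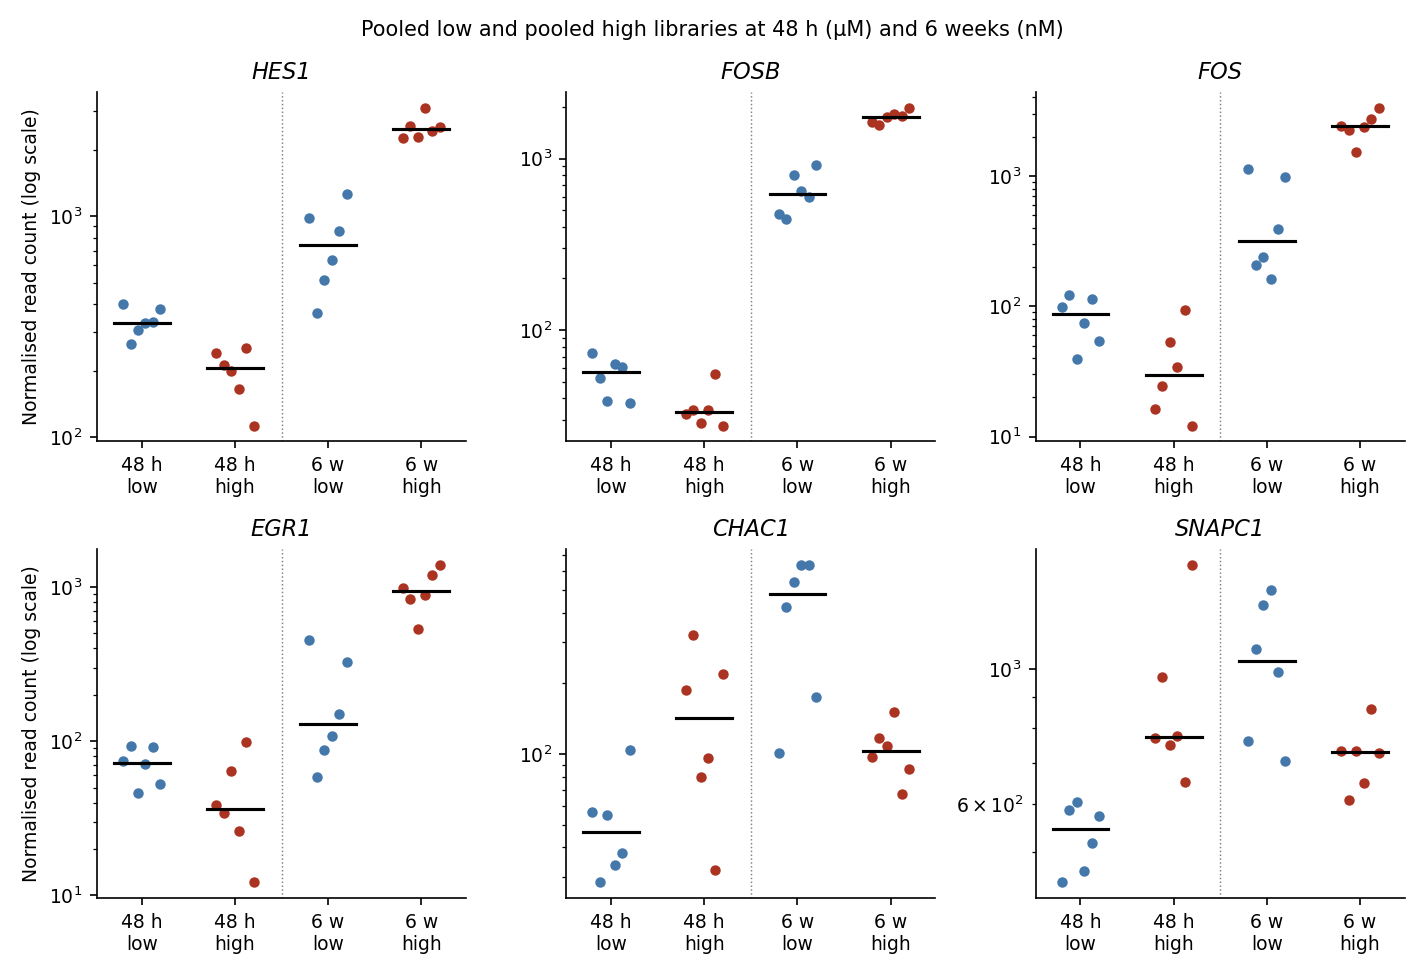
Normalised read count, on a log scale, of 6 genes in each library of the low pool (blue) and high pool (red) at 48 h (vehicle and 1 µM; 10 and 100 µM) and at 6 weeks (vehicle and 1 nM; 10 and 100 nM), with the median of 6 as a bar. The times were normalised in separate tables, so only differences within a time compare; HES1 is lower in the high pool at 48 h (-0.79) and higher at 6 weeks (1.82).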

How the data were processed

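The 48 h table gives 12 columns, 1 per library, of deposited signal, that is read counts per gene divided by a size factor; the submitters' processing notes name HISAT, Bowtie2 and DESeq2 without versions or roles, and GRCh38.p14. How reads were counted, and whether by strand, is not given in the sources used here. All 12 columns gave whole reads (100% of values within 0.01). Of 47137 listed genes 18048 had values and 12233 had a mean of at least 10. limma 3.58.1 in R 4.3.3 (moderated with a mean trend) was fitted to log2(signal + 1) with 1 mean per concentration group, and the contrast was the mean of 10 and 100 µM minus that of vehicle and 1 µM, with Benjamini-Hochberg adjustment over all genes tested. A fold change on this scale understates low genes. On the recovered reads, DESeq2 1.42.0 and edgeR 4.0.16 were run; these, other scalings, filters, covariates, a block on replicate number and leaving out each library were the alternatives. GC content and length came from GENCODE 29 and covered 98.9% of genes. The main limma fit of the pooled comparison was tested on counts simulated from the 48 h libraries. Each gene was drawn independently, without the first component that held 78.0% of the variance. The simulation therefore does not show how the fit behaves when genes share such a component. The alternatives and the comparisons between times were not tested in this way.

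The members and gene lists were chosen with earlier results of these data known. Genes were named by a rule: without overlap of the pools, a mean of at least 50 and the smallest p (12 per direction) or the largest difference (5 per direction), up to 4 per list with the smallest p, and list members described for their values. The search for the RBPJ element was added after the values were seen. The labels call the replicates biological triplicates, and same-numbered libraries are not said to share a culture. At 18444181 to 19466331 reads per library, counting error limits the lowest genes named here, such as CREB3L3 and NUPR1.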

Additional observations from a re-analysis of the deposited data

Results flagged for a closer look

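Of 174 groups of 6 libraries tested for 1 value far from the rest, 12 held one, where chance gives about 1 in 20 groups. The measure is the gap to the nearest library as a share of the whole range, with a critical value of 0.625. In the low pool 1 µM replicate 3 was the low library for SRF (0.682), APLN (0.807), GATA2 (0.786), ORC6 (0.703) and CDCA8 (0.689), all genes whose means were lower in the high pool. Vehicle replicate 3 was the low library for ASNS (0.65), at 1096 against 1381 for the next.

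In the high pool 10 µM replicate 2 was the high library for FOSB (0.76), NOTCH1 (0.761), GATA2 (0.66) and MCM3 (0.802) and the low one for SKIL (0.649). In each it lay on the side of the low pool. MKRN1 was high in 10 µM replicate 3 (0.745), at 1288 against 1033 for the next.

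The pooled difference at 48 h differed from that at 6 weeks in limma's test for 8 named genes. The difference of the log2 differences was -2.62 for HES1, -2.07 for FOSB, -3.9 for FOS, -3.47 for EGR1, -2.0 for ZFP36, -1.82 for ATF3, 3.08 for CHAC1 and 1.19 for SNAPC1, and only HES1 and FOSB passed whichever library was left out.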

How the results depend on the processing

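Over 28 alternatives the pooled comparison called 0 genes in each except DESeq2, which called 2. Between 100 and 10 µM, DESeq2 called 2 and the replicate block with the first component 2; between 1 µM and vehicle DESeq2 called 1. Weighting the libraries called 1645 genes for 1 µM against vehicle, 10849 for 100 µM against vehicle, 10479 against 6 weeks and 8792 against 12 weeks, but its weights ran from 1.22e-07 to 559.8 in the 48 h fit and up to 55942 in the fit with 12 weeks, and the estimate of the weights stopped before convergence in part of the fits. For 48 h against 6 weeks the other settings gave 4 genes with the first component, 7 after quantile normalisation, 1 with a minimum fold of 1.5, 2 without a filter, 2 with the replicate block and 6 with the block and the component, and 2 to 7703 when single libraries were left out; against 12 weeks no filter gave 1. Genes without overlap numbered 47 higher after GC correction and 73 lower after quantile normalisation, 91 and 301 without both 10 µM replicates 2 and 3, and 22 to 84 and 42 to 249 without single libraries. The shares differed by 2.14 to 4.33 (ribosomal) and 1.20 to 2.44 (mitochondrial) percentage points without single libraries. The causes were not tested.

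The replicate block did not change a call in the pooled comparison (0 genes, 593 at an unadjusted p under 0.05). The numbers did not pair the libraries throughout: over 18 same-numbered pairs the correlation of deviations had a median of 0.0227 (from -0.892 to 0.892), against -0.0289 for 36 other pairs. Among vehicle, 1 and 10 µM, libraries numbered 2 correlated at 0.807 to 0.892 and those numbered 3 at 0.667 to 0.792, while those of 100 µM ran against them (-0.516 to -0.892) and those numbered 1 lay between -0.322 and 0.386. No named gene that was followed over the alternatives changed sign in the pooled comparison. JAG1, MFNG, HEY2, HES4, ENG and TIE1 were not followed. Of the list medians under these settings, 26 moved by more than the spread between replicates and 1066 did not. That spread was wide, so the count does not show that the medians were stable. The ribosomal protein median ran from 0.02 to 0.76 and counts as not moved. Over the 28 alternatives the median changed sign in 13 for the NF-kB list, 11 for hypoxia and glycolysis and 10 for p53. It changed sign in 0 for the immediate early and Notch lists.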
